A study of Arabidopsis thaliana with 9 samples.

Results

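The genes described here had a higher signal with estrogen than without it in every one of 3 replicate pairs of Arabidopsis thaliana suspension cells at 12 h. A probe set mapped to 1 gene was taken when the estrogen-treated minus untreated log2 signal was 0.5 or more in each pair and the estrogen-treated mean was 5 or more. LHW and 6 other genes (AT4G38650, AT1G28070, AT1G10750, AT1G70550, AT5G02230 and scpl16) were left out. The rule gave 37 genes, each with 1 passing probe set, of 16542 genes with a probe set of their own, and 10 genes met the same thresholds in the opposite direction, with the floor on the untreated mean.

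The cells were a suspension culture, labelled Alex and of genetic background Col-O, that carried an estrogen-inducible construct labelled LHW/T5L1-GFP and was grown in the dark at 23 °C. Of the 9 arrays, 3 were of cells after 12 h with 5 µM estrogen, 3 of cells after 12 h without estrogen and 3 of cells at 0 h, labelled as 0 h of estrogen, and all 3 groups carried the construct. The labels do not say how many lines were used or whether replicates were separate cultures, so p-values reflect the spread of these arrays alone, and that spread may be technical. No group held estrogen-treated cells without the construct, so effects of estrogen, LHW and T5L1 cannot be told apart. LHW, the induced gene, did not go against the labels: its log2 signal was 10.72, 11.05 and 11.24 with estrogen, 8.72, 8.60 and 8.14 without it and 8.60, 8.71 and 8.22 at 0 h. T5L1 had no probe set of its own and was not analysed here.

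LHW and T5L1 are basic helix-loop-helix (bHLH) transcription factors. Their proteins bind each other, and the pair promotes divisions of vascular precursor cells in the root and embryo, in part through cytokinin synthesis. Genes that rise when the pair is switched on can be direct targets or later effects, and an array cannot separate these. Family names below are general knowledge of Arabidopsis genes, because the tables used gave only symbols and loci. A role is stated for 26 of the 37 genes.

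All values are deposited log2 signals, 1 array each, so differences are log2 fold changes of signal. Array medians over probe sets with 1 gene were 5.12 to 5.39 with estrogen, 5.15 to 5.36 without it and 5.07 to 5.40 at 0 h, with replicate 3 highest in each group. Replicate 3 stood apart from the other replicates: at least 2 of its 3 arrays held exactly equal values for 37.6% of probe sets, against 1.06% in replicate 1 and 0.833% in replicate 2. The 23 background control rows, filled in replicates 1 and 2, had a median of 4.13. The estrogen-treated mean of every one of the 37 genes lay above it, which the floor of 5 fixed in advance. The other groups had no floor, and 2 genes without estrogen and 5 at 0 h had means below it. Fewer cells of a type and less RNA per cell cannot be told apart in these samples.

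Mean differences between estrogen-treated and untreated cells ran from 0.57 to 2.23 with a median of 0.92, or 1.48-fold to 4.69-fold with a median of 1.89-fold. The genes were chosen by these differences, which are given as a description. Over the 8646 probe sets with 1 gene and an estrogen-treated mean of 5 or more, the median difference was 0.02. The medians of the 37 genes in pairs 1, 2 and 3 were 0.84, 0.94 and 0.85. In 14 genes the mean difference was at least 1, and in 6 genes every pair reached 1. Arrays with and without estrogen did not overlap in 33 of the 37 genes, against 3.25% of the 8646 probe sets, a contrast the rule had used. The 4 genes whose groups overlapped were AT4G33420, AT2G39210, AT1G21740 and AT3G20590. The rule selected on the estrogen difference, so p-values of the 37 genes for it are no support for them. The whole-table limma fit of that difference called 0 of the 37 genes (lowest adjusted p = 0.101) and 0.0392% of all probe sets. These 15 were all higher, a direction that did not hold for all calls of other fits: 22 of 95 were higher without untreated replicate 3 and 218 of 608 with array weights.

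**Figure D1:**
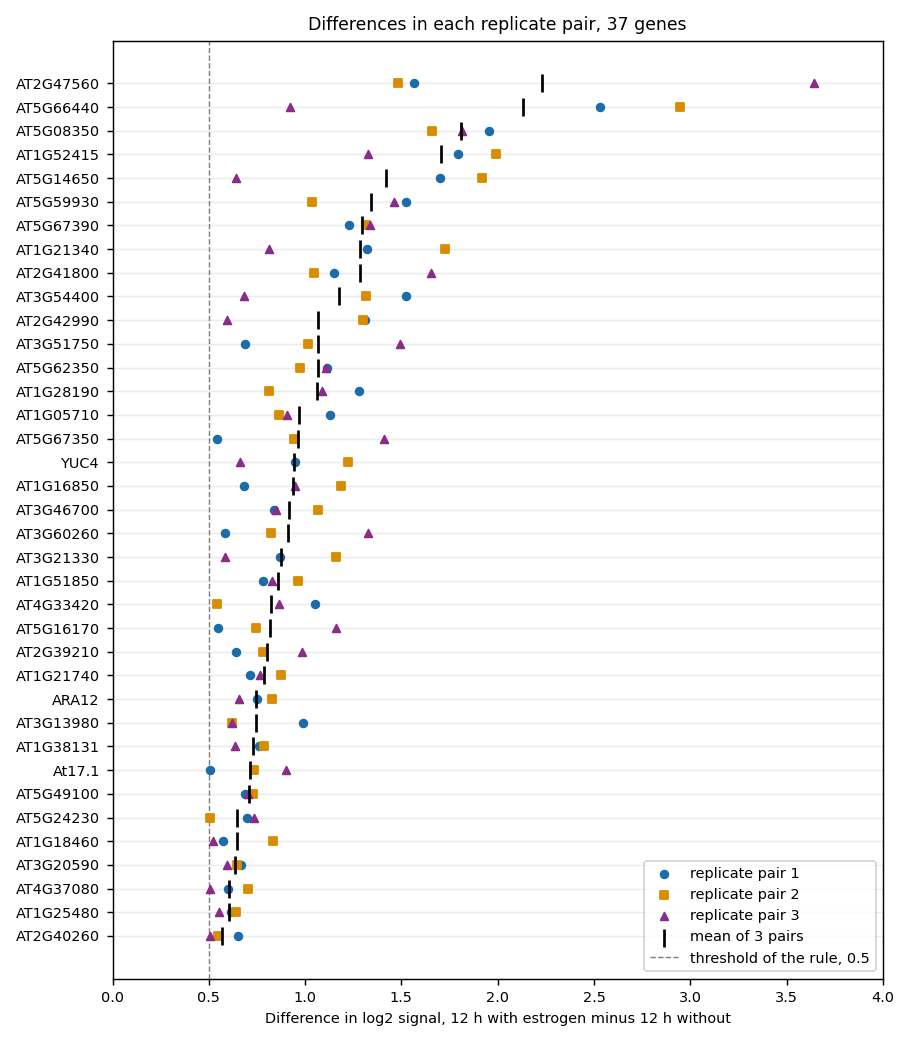
Difference in log2 signal between cells with and without estrogen at 12 h (x axis) for each of the 37 genes (y axis), with a symbol per replicate pair and a bar at the mean of the 3 pairs. All points lie at or right of the dashed threshold of 0.5 because the rule required it. AT2G47560 and AT5G66440 show the widest spread between pairs, with replicate pair 3 farthest from the others.

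The number of genes that the rule would pass by chance depends on how the pairs are related. Of 8639 probe sets that could pass, 1.97% reached 0.5 in pair 1, 2.12% in pair 2 and 1.77% in pair 3. If the 3 pairs were unrelated, the product of these shares gives 0.0638 probe sets, against 37 that passed. Pairs 1 and 2 were passed together by 75 probe sets, and if only pair 3 were unrelated to them, 1.33 would pass. Outside the 7 genes left out, 69 probe sets with 1 gene and a mean of 5 or more in at least 1 of the 12 h groups moved by 0.5 or more in every pair. Of these, 37 were higher in all 3 pairs and 10 lower in all 3. A further 22 were lower in pairs 1 and 2 and higher in pair 3, and the other 5 mixed patterns held 0. Pairs 1 and 2 moved in the same direction in each of these 69 probe sets. Both estimates give every probe set the same chance of passing, though noisier probe sets can reach 0.5 more often. They also take no account of handling shared within an array batch. Neither point was tested, so the number by chance may be higher than both estimates. With replicate 3 left out the rule gave 76 genes, 36 of them among the 37. A gene that passed all 3 pairs passes any 2 of them, apart from the floor, so this overlap was fixed by the rule.

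At the threshold, the members with the smallest single-pair differences were AT2G40260 (0.51 in pair 3), At17.1 (0.51 in pair 1) and AT5G24230 (0.51 in pair 2). Just outside lay AT2G46850 (0.4993 in pair 1), AT5G67340 (0.49 in pair 2) and AT2G41810 (0.48 in pair 3). AT3G51750 was nearest above the floor on the estrogen-treated mean, at 5.02, and BGLU15 was nearest below it, at 4.98. In all, 10 genes passed in every pair but had an estrogen-treated mean under 5. One of these was IAA30, an Aux/IAA repressor of auxin response, with pair differences of 1.70, 1.08 and 2.57. Its means were 4.14 with estrogen, close to the background rows, and 2.35 without it, below them, so the size of the difference is uncertain.

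What the genes did between 0 h and 12 h was tested with the mean of both 12 h groups minus 0 h. The errors of this contrast are unrelated to those of the contrast that chose the genes when arrays vary equally, but it contains part of each gene's estrogen difference, and the floor on the estrogen-treated mean touches it. Limma called 17 of the 37 genes higher and 12 lower, and 8 were not called. Over the 8646 probe sets with 1 gene and an estrogen-treated mean of 5 or more, 32.8% were called higher and 22.3% lower. The median of this contrast was 0.47 over the 37 genes and 0.12 over the 8646 probe sets, but the first holds part of the difference the rule selected on. Set apart, the median difference of the 37 genes from 0 h was 0.90 with estrogen and -0.16 without it. With estrogen, some ended above 0 h, some stayed near it and some ended below it.

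All 3 estrogen-treated arrays lay above all 3 arrays at 0 h in 20 of the 37 genes and below them in 12, where 34.7% and 24% of the 8646 probe sets did so. The rule used the estrogen-treated arrays, so these counts are a description. The 20 included all 17 genes called higher, whose call makes this likely. The mean without estrogen also lay above 0 h in 16 of the 17, without overlap in 11. AT1G52415 was the exception, at 4.37 without estrogen and 4.50 at 0 h. Untreated arrays enter the contrast behind the calls, so these counts and the next are a description. The share of the 8646 probe sets without overlap between untreated and 0 h arrays was not counted. In the 12 genes called lower, every array of both 12 h groups lay below every array at 0 h. The difference from 0 h with estrogen was 21.5% to 78.6% of that without it, with a median of 68.9%. A smaller difference with estrogen was fixed by the rule for any gene that lay below 0 h in both groups. Against 0 h, untreated cells alone had 10 of the 37 genes called higher and 13 lower, where 29.5% and 20.1% of the 8646 probe sets were called. That comparison shares the untreated arrays with the rule and is given as a description.

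**Figure D2:**
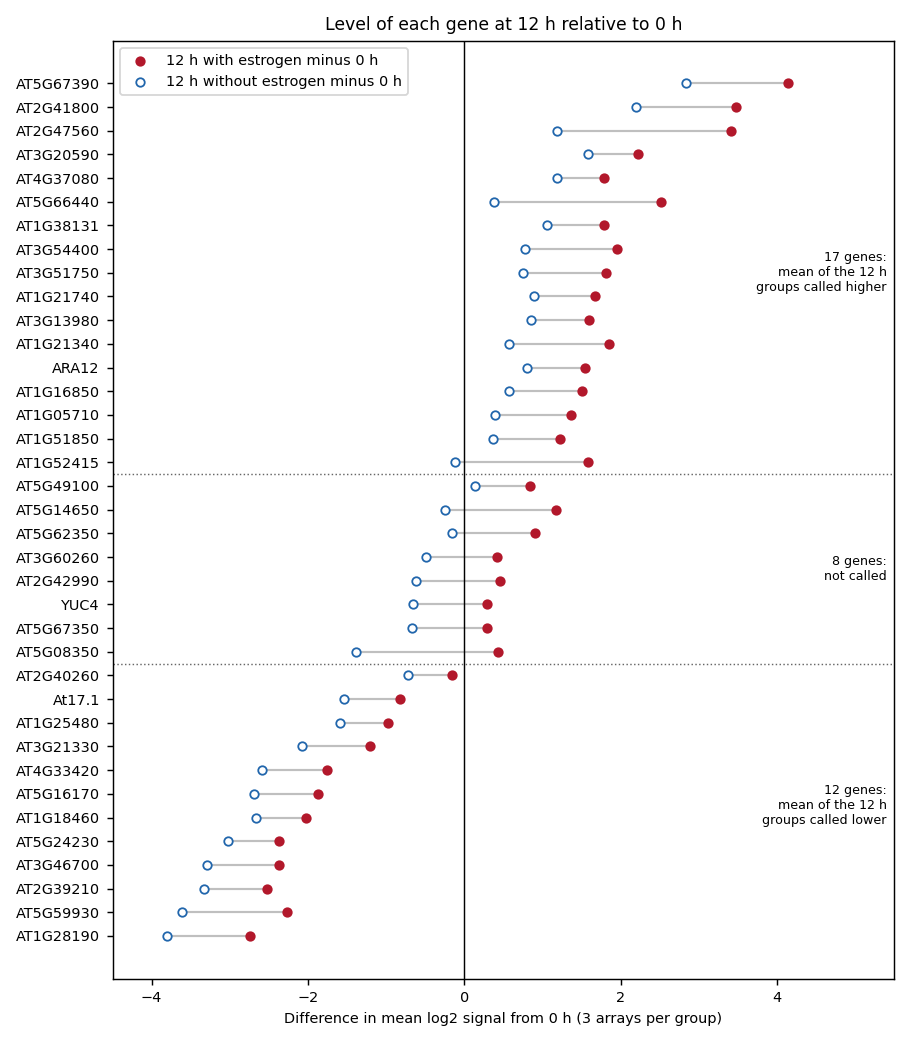
Difference of the mean log2 signal from 0 h (x axis, 3 arrays per group) for each gene (y axis) in cells with estrogen (filled) and without it (open), joined by a line. From top to bottom stand the 17 genes called higher, the 8 not called and the 12 called lower for the mean of both 12 h groups against 0 h. The filled point lies right of the open one in every gene because the rule required it.

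Counts by role hold few genes, grouped after the members were known, and are given as a description. Over the 8646 probe sets, 32.8% were called higher and 22.3% lower against 0 h. Of 5 genes of the cell wall and the space outside the cell, 2 were called higher against 0 h, 1 was called lower and 2 were not called. AT2G41800, a wall protein of the DUF642 family, had log2 signals of 8.04, 8.23 and 8.50 with estrogen, 6.89, 7.18 and 6.85 without it and 5.06, 4.98 and 4.30 at 0 h. The 3 groups did not overlap, and the estrogen difference of 1.28 ± 0.32 (SD, n = 3 pairs) came on top of a higher level without estrogen. The mean of both 12 h groups rose by 2.83 (SE 0.21, adjusted p = 8.16e-06) against 0 h. AT1G38131, of a family of O-fucosyltransferases that modify sugars, had signals of 8.27, 8.33 and 7.91 with estrogen, 7.51, 7.55 and 7.28 without it and 6.02, 6.42 and 6.71 at 0 h. It differed by 0.76, 0.79 and 0.64 in the 3 pairs, a narrow spread, and rose by 1.42 (SE 0.19, adjusted p = 0.000216) against 0 h.

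AT5G14650 belongs to the pectin lyase-like family that holds polygalacturonases, enzymes that cut pectin. Its signals were 5.21, 5.59 and 4.81 with estrogen, 3.51, 3.67 and 4.16 without it and 3.62, 3.91 and 4.54 at 0 h. Levels without estrogen and at 0 h overlapped and lay at or near the background rows, so the size of its estrogen difference, 1.42 ± 0.68, is uncertain. AT5G62350, of the invertase and pectin methylesterase inhibitor family, had signals of 6.78, 6.65 and 6.15 with estrogen, 5.67, 5.68 and 5.04 without it and 6.03, 6.04 and 4.81 at 0 h. Its pair differences of 1.11, 0.98 and 1.11 were nearly equal, although replicate 3 lay lower in all 3 groups. Neither gene was called against 0 h. AT4G33420, a class III peroxidase of the kind that cross-links wall polymers, had signals of 5.98, 5.80 and 7.20 with estrogen, 4.93, 5.25 and 6.34 without it and 7.65, 8.14 and 8.47 at 0 h. Replicate 3 was highest in each group, so the groups overlapped at 12 h while the pair differences were 1.05, 0.54 and 0.86. Taken as unpaired means, its estrogen difference of 0.82 was 0.38 without estrogen-treated replicate 3, and 0.53 and 1.24 without untreated replicates 1 and 3. The gene fell by 2.17 (SE 0.39, adjusted p = 0.00157) against 0 h.

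All 3 genes of protein breakdown were called higher against 0 h, where 32.8% of the 8646 probe sets were. The call of AT2G47560 among them was not stable. ARA12, a secreted subtilisin-like protease needed for seed mucilage release, had signals of 7.42, 7.45 and 7.18 with estrogen, 6.67, 6.62 and 6.52 without it and 5.95, 5.82 and 5.65 at 0 h. Its 3 groups did not overlap, with pair differences of 0.75, 0.83 and 0.66 and a rise of 1.17 (SE 0.14, adjusted p = 0.00011) against 0 h. AT3G54400, an aspartyl protease, had signals of 9.77, 9.66 and 9.32 with estrogen, 8.25, 8.34 and 8.64 without it and 7.64, 7.78 and 7.49 at 0 h. The pair differences were 1.52, 1.31 and 0.68, smallest in pair 3, and the rise against 0 h was 1.36 (SE 0.16, adjusted p = 0.000121). AT2G47560, of the ATL family of RING-type ubiquitin ligases, had the largest mean difference of the 37, 2.23 ± 1.22. Its signals were 9.51, 9.45 and 8.58 with estrogen, 7.94, 7.97 and 4.94 without it and 6.80, 6.57 and 3.91 at 0 h. That rank rested on untreated replicate 3: without it the difference was 1.22, below that of AT5G66440 (2.30), and in replicates 1 and 2 only it was 1.52. In untreated cells and at 0 h replicate 3 lay far below the other replicates, and the pair differences were 1.57, 1.48 and 3.64. Its rise against 0 h, 2.30 (SE 0.81, adjusted p = 0.0455), ended in 10 of 19 alternatives (adjusted p from 0.000138 to 0.187 over all of them), and it was 1.38 without replicate 3 at 0 h. Among these were the fits without replicate 2 or 3 at 0 h, without replicate 1, 2 or 3 with estrogen and without replicate 1 or 2 without it.

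Of 4 transcription regulators, 2 were called higher and 2 lower against 0 h. AT1G21340, a Dof zinc finger factor, had signals of 5.61, 5.74 and 5.73 with estrogen, 4.29, 4.01 and 4.91 without it and 3.83, 4.41 and 3.27 at 0 h. The estrogen-treated arrays lay close together while the other groups spread more widely, and pair differences were 1.32, 1.73 and 0.81. It rose by 1.21 (SE 0.27, adjusted p = 0.00494) against 0 h, and by 0.79 in replicates 1 and 2 only. Its 0 h mean of 3.84 lay below the background rows and its untreated level was near them, so the size of both differences is uncertain. AT1G05710 and AT3G21330 encode bHLH proteins, the family of LHW and T5L1. AT1G05710 had signals of 5.78, 5.78 and 6.06 with estrogen, 4.65, 4.92 and 5.15 without it and 4.44, 4.39 and 4.70 at 0 h, with a rise of 0.88 (SE 0.16, adjusted p = 0.00166) against 0 h. AT3G21330 had signals of 5.38, 5.56 and 5.22 with estrogen, 4.51, 4.39 and 4.63 without it and 6.14, 6.34 and 7.29 at 0 h, with a contrast of -1.65 (SE 0.24, adjusted p = 0.000467). The pair of bHLH genes were thus on opposite sides of their 0 h levels, while both differed between cells with and without estrogen, by 0.97 ± 0.14 and 0.87 ± 0.29. AT2G40260, of a homeodomain-like family, had signals of 7.29, 7.27 and 7.39 with estrogen, 6.64, 6.72 and 6.88 without it and 7.44, 7.47 and 7.50 at 0 h. It had the smallest estrogen difference of the 37, 0.57 ± 0.08, and its estrogen-treated arrays lay just below 0 h. Its call of -0.44 (SE 0.12, adjusted p = 0.0167) ended without replicate 2 at 0 h (adjusted p = 0.056).

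Of 3 genes of lipase and esterase families, 2 were called lower against 0 h and 1 was not called. AT5G24230, of the class III lipase family, had signals of 7.51, 7.53 and 7.46 with estrogen, 6.82, 7.02 and 6.73 without it and 9.82, 9.80 and 9.999 at 0 h. Its signal was lower at 12 h in both groups, and less so with estrogen. AT1G18460, an alpha/beta hydrolase, had signals of 6.52, 6.38 and 6.13 with estrogen, 5.95, 5.55 and 5.61 without it and 8.18, 8.37 and 8.57 at 0 h and the same order of groups. The contrasts of the 12 h groups with 0 h were -2.70 (SE 0.13, adjusted p = 1.27e-06) and -2.35 (SE 0.16, adjusted p = 6.61e-06) for these genes in that order. AT2G42990, a GDSL-type esterase or lipase, had signals of 5.31, 5.19 and 5.75 with estrogen, 4.002, 3.90 and 5.15 without it and 4.74, 4.60 and 5.54 at 0 h. Replicate 3 was highest in all groups, and the contrast with 0 h was -0.08 (SE 0.32, adjusted p = 0.895).

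YUC4, a flavin monooxygenase that makes the auxin indole-3-acetic acid, had signals of 7.69, 8.02 and 7.13 with estrogen, 6.75, 6.80 and 6.47 without it and 7.39, 7.44 and 7.14 at 0 h. Estrogen-treated and 0 h levels overlapped, and untreated cells were lowest. The pair differences were 0.95, 1.22 and 0.66, or 1.92-fold on average, and the contrast of both 12 h groups with 0 h was -0.18 (SE 0.21, adjusted p = 0.558). AT3G46700, a UDP-glycosyltransferase that attaches sugars to small molecules, had signals of 6.12, 6.10 and 5.69 with estrogen, 5.28, 5.03 and 4.84 without it and 7.95, 8.04 and 9.05 at 0 h. Every array at 12 h lay below every array at 0 h, and the group means differed from 0 h by -2.38 with estrogen and -3.30 without it.

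Of a receptor kinase and 2 transporters, 1 was called higher against 0 h and 2 lower. AT1G51850, a leucine-rich repeat receptor kinase, had signals of 6.79, 6.93 and 6.56 with estrogen, 6.01, 5.97 and 5.73 without it and 5.62, 5.76 and 5.25 at 0 h and rose by 0.79 (SE 0.17, adjusted p = 0.00345) against 0 h, a call that ended after quantile normalization (adjusted p = 0.312). AT2G39210, of the major facilitator superfamily of membrane transporters, had signals of 9.29, 9.37 and 8.61 with estrogen, 8.65, 8.58 and 7.62 without it and 11.54, 11.54 and 11.76 at 0 h. Its means differed from 0 h by -2.52 with estrogen and -3.33 without it, and replicate 3 was lowest in both 12 h groups, which therefore overlapped. Taken as unpaired means, its estrogen difference of 0.80 was 0.47 without untreated replicate 3. With replicate 3 left out of both 12 h groups it was 0.71. AT1G25480, of the aluminium-activated malate transporter family, an anion channel family, had signals of 6.77, 6.65 and 7.17 with estrogen, 6.16, 6.01 and 6.62 without it and 7.73, 7.85 and 7.97 at 0 h. Its pair differences were 0.62, 0.64 and 0.55.

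Among 6 genes with other known domains, 2 were called higher, 2 lower and 2 not. AT5G08350, of a family with a GRAM domain and abscisic acid-responsive relatives, had signals of 6.68, 6.84 and 7.39 with estrogen, 4.73, 5.19 and 5.58 without it and 6.0005, 6.05 and 7.59 at 0 h. Estrogen-treated cells overlapped with 0 h, while all untreated arrays lay below both, and the estrogen difference was 1.81 ± 0.15. AT5G59930, of a cysteine- and histidine-rich family, had signals of 6.25, 6.30 and 7.28 with estrogen, 4.73, 5.26 and 5.82 without it and 8.65, 8.63 and 9.35 at 0 h. Its means differed from 0 h by -2.27 with estrogen and -3.61 without it. AT3G60260, of the ELMO family, had signals of 6.93, 7.46 and 7.48 with estrogen, 6.34, 6.64 and 6.15 without it and 6.97, 6.83 and 6.80 at 0 h, with pair differences of 0.58, 0.82 and 1.32.

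AT1G21740 and AT4G37080 encode plant proteins with domains of unknown function. AT1G21740 had signals of 6.47, 6.55 and 5.76 with estrogen, 5.76, 5.68 and 4.99 without it and 4.53, 4.83 and 4.41 at 0 h, and its 12 h groups overlapped because replicate 3 was lowest in both. Its rise of 1.28 (SE 0.24, adjusted p = 0.002) against 0 h was not called after quantile normalization (adjusted p = 0.0586). AT4G37080 had signals of 8.59, 8.62 and 8.56 with estrogen, 7.99, 7.91 and 8.06 without it and 6.61, 6.77 and 7.04 at 0 h. Its groups had narrow spreads and did not overlap, with a rise of 1.48 (SE 0.14, adjusted p = 3.11e-05) against 0 h. At17.1, named for its response to nematode infection, had signals of 8.49, 8.50 and 8.52 with estrogen, 7.99, 7.77 and 7.62 without it and 9.39, 9.08 and 9.53 at 0 h. Its estrogen-treated arrays agreed closely and differed from 0 h by -0.83 on average.

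The 11 genes for which no role is stated included some of the largest differences, and 7 of them were called higher against 0 h, 2 lower and 2 not. Over the 8646 probe sets the shares were 32.8% higher and 22.3% lower, and with 11 genes this is a description. AT5G67390 had signals of 8.82, 8.96 and 9.33 with estrogen, 7.59, 7.65 and 7.9996 without it and 5.04, 5.21 and 4.47 at 0 h. Its contrast of 3.49 (SE 0.21, adjusted p = 3.37e-06) with 0 h was the largest rise among the 37, and the estrogen difference of 1.29 ± 0.06 was nearly equal in the 3 pairs. AT5G66440 had signals of 7.004, 6.98 and 5.67 with estrogen, 4.47, 4.03 and 4.74 without it and 4.38, 3.58 and 4.16 at 0 h. Levels without estrogen were near those at 0 h and near the background rows, and pair 3 differed by 0.92 where pairs 1 and 2 differed by 2.53 and 2.95. The 0 h mean of AT5G66440, 4.04, lay below the background rows, so the size of its differences is uncertain. AT1G52415 had signals of 6.35, 6.22 and 5.67 with estrogen, 4.56, 4.23 and 4.34 without it and 4.54, 4.81 and 4.14 at 0 h. Among the genes called higher it was the one whose level without estrogen lay below 0 h, and its contrast of 0.73 (SE 0.21, adjusted p = 0.0175) was lost after quantile normalization, after median centring and without replicate 3 at 0 h (adjusted p up to 0.396).

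AT1G28190 had the lowest contrast with 0 h of the 37, -3.27 (SE 0.15, adjusted p = 9.99e-07). Its signals were 5.75, 5.71 and 5.78 with estrogen, 4.47, 4.90 and 4.69 without it and 8.52, 8.66 and 8.28 at 0 h, and estrogen-treated cells lay between the other groups on every array. AT5G16170 showed the same order, with signals of 5.65, 5.75 and 6.47 with estrogen, 5.11, 5.003 and 5.31 without it and 7.95, 8.09 and 7.46 at 0 h. AT3G51750 had signals of 4.56, 4.85 and 5.66 with estrogen, 3.87, 3.83 and 4.16 without it and 3.39, 3.28 and 2.94 at 0 h, with pair differences of 0.69, 1.02 and 1.49. Its means without estrogen and at 0 h lay below the background rows, so the size of these differences is uncertain. AT3G20590 had signals of 9.76, 9.67 and 9.05 with estrogen, 9.10, 9.02 and 8.46 without it and 7.76, 7.69 and 6.37 at 0 h. Replicate 3 was lowest in all its groups, while the pair differences of 0.67, 0.65 and 0.59 were nearly equal. AT1G16850 and AT3G13980 rose by 1.04 and 1.22 against 0 h, with estrogen differences of 0.94 ± 0.25 and 0.74 ± 0.21. The 0 h mean of AT3G13980, 4.02, lay below the background rows, so the size of its rise is uncertain. AT5G49100 had the smallest spread between pairs of the 37, 0.71 ± 0.02, and its contrast with 0 h of 0.49 (SE 0.25, adjusted p = 0.162) was called with the replicate number as a block (adjusted p = 0.00226) and in 4 other alternatives. It was 0.28 without replicate 2 at 0 h and 0.75 without replicate 3 at 0 h (adjusted p = 0.0361).

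**Figure D3:**
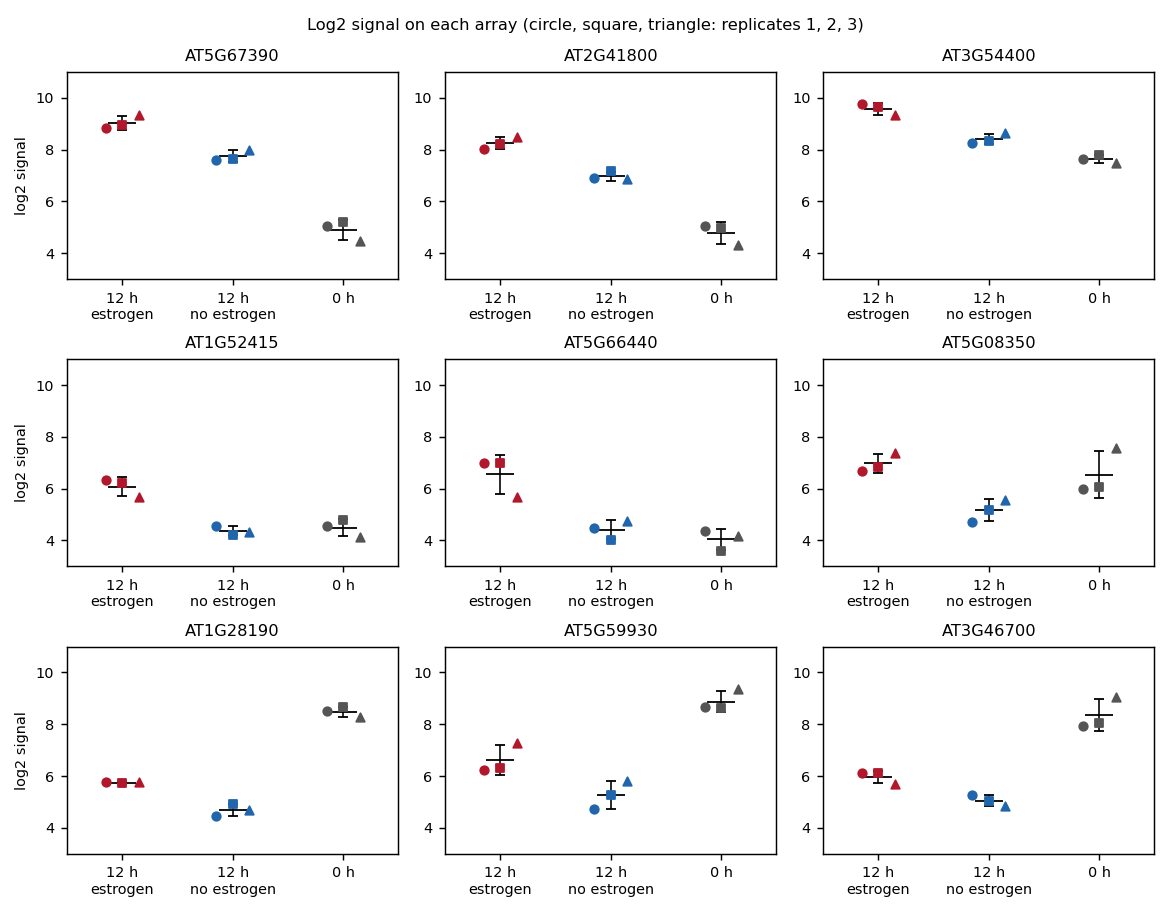
Log2 signal (y axis) on each array for 9 genes, with cells at 12 h with estrogen (red), at 12 h without it (blue) and at 0 h (grey) in each panel. Bars are the mean ± SD of 3 arrays. The top row shows genes above 0 h in both 12 h groups, the middle row genes whose untreated level was near or below 0 h, and the bottom row genes below 0 h in both 12 h groups.

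The position of the genes on the chromosomes was not used by the rule. Of the 74 genes directly next to a member in the gene table, 38 were measured. AT5G67350 and ARA12 (AT5G67360) are members and neighbours of each other. AT5G67350 had signals of 6.45, 6.51 and 7.04 with estrogen, 5.91, 5.57 and 5.63 without it and 6.50, 6.65 and 5.97 at 0 h. On its other side AT5G67340, of a U-box and armadillo repeat family, narrowly missed the rule with pair differences of 0.67, 0.49 and 0.88. AT5G67390, the member described above, lies farther along, and the measured gene between them, AT5G67385, differed by 0.02, 0.18 and -0.13. A second set of neighbours was AT2G41800 and AT2G41810, both of the DUF642 family, where AT2G41810 narrowly missed the rule with 0.64, 0.98 and 0.48. AT5G59940, next to AT5G59930 and of the same family, had differences of 0.64, 0.25 and 0.40. Signal shared between probe sets of related genes was not tested. Over the 36 measured neighbours that are not members, the median difference was 0.02, and 6 were higher with estrogen in all 3 pairs. Exact ties in pair 3, as in AT2G42980 (0.82, 0.28 and 0), lower that count. The share over all probe sets was not counted, so the 6 are given as a description.

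**Figure D4:**
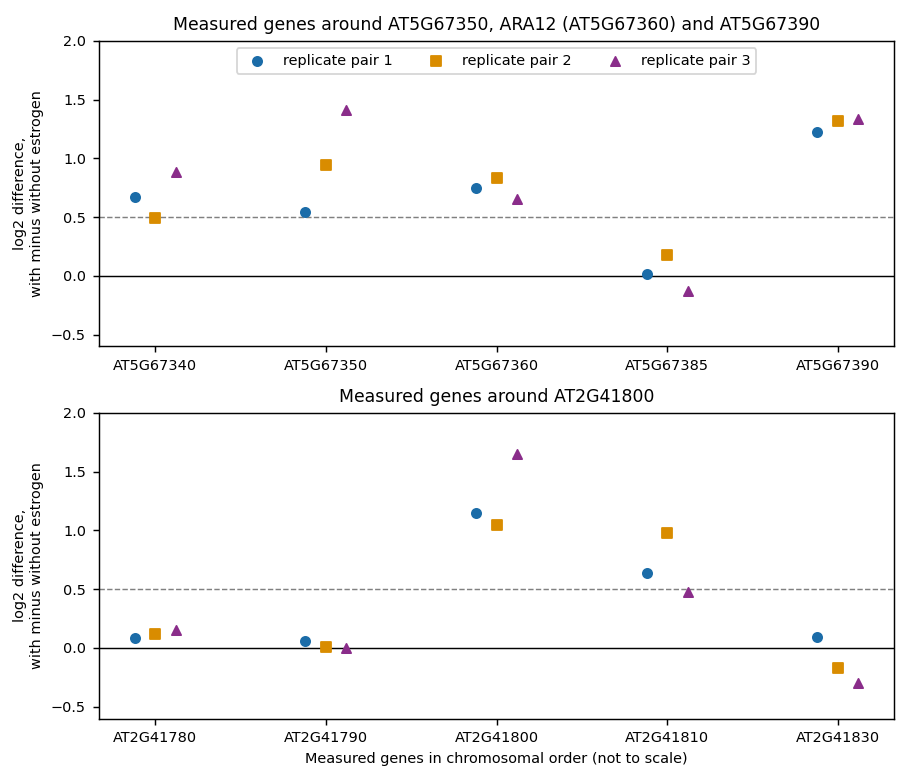
Difference in log2 signal between cells with and without estrogen (y axis) in each replicate pair for measured genes in chromosomal order (x axis, not to scale) around 3 members on chromosome 5 (top) and AT2G41800 on chromosome 2 (bottom). The dashed line is the threshold of 0.5. AT5G67340, AT5G67350 and ARA12 lie at 0.49 or above in every pair, and AT5G67385 lies near 0.

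Genes of vascular development and hormone response were looked up in 11 lists, and 26 of their genes had a probe set of their own. None of the 26 was a member, a count that the rule partly fixed. LHW was left out by name, and IAA30 passed every pair but missed the floor. Of all probe sets that could pass, 37 of 8639 did. In both 12 h groups 13 of the 26 had means below the background rows, and so under the floor. For these 13 the differences are no measure of expression. Of 8 genes of the LHW and T5L1 families, 3 were measured, and the 2 besides LHW were T5L2 (-0.19, -0.0044 and 0.07 in the 3 pairs) and T5L3 (0.46, 0.03 and 0.12, below the background rows). DOF2.1 (-0.08 on average) and BGLU44 (-0.06, below the background rows) were the 2 measured of 8 genes reported as targets of LHW and its partners. AHP6, SACL3, LOG3 and LOG4 were not analysed here, for want of a probe set mapped to each alone. The procambium and cambium list had 3 of 13 genes measured, with a median difference of -0.18, and none of 13 xylem vessel genes was measured. Of 13 auxin response genes 8 were measured, with a median difference of 0.04. GH3.3, an auxin-conjugating enzyme, was lowest at -0.41, and IAA30 is described above. The 2 measured cytokinin response genes, ARR15 and ARR16, of 24 listed, had a median of 0.17 with estrogen-treated means of 2.29 and 2.08, below the background rows. The phloem, root hair, endodermis and green leaf lists had 2 of 8, 2 of 4, 1 of 4 and 1 of 4 genes measured, with medians of 0.09, 0.13, -0.17 and 0.25, and the SAC51 list had 2 of 4, with a median of 0.0043. Among these, CLE45, EXPA7, EXPA18, SGN3 and SACL2 lay below the background rows in both 12 h groups. The label names a suspension culture, for which no defining marker was available.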

How the data were processed

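Total RNA of 9 samples was made into biotin-labelled DNA for Affymetrix arrays, 1 per sample, per the labels' protocols. The deposited values are log2 signals per probe set. The submitters' processing notes name Affymetrix Expression Console 1.3 as the authors' software. Summarisation, normalization and build are not given in the sources used here. Of 38506 rows, 38310 with 9 values were used, of which 16722 had 1 gene, 759 several and 20829 none named here. The 196 others were control rows filled on part of the arrays. Arrays give no read depth, so their number limits precision.

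Members, lists and tests were chosen with earlier results of these data known. Where several probe sets of a gene passed, the brightest would stand for it. One limma 3.58.1 model (R 4.3.3, a mean per group, 9 arrays, prior degrees of freedom 3.07) gave two-sided p-values, adjusted after Benjamini-Hochberg over 38310 probe sets and called at 0.05. It was tested on simulated data. Named first were the 12 largest differences, list genes, the largest rises and falls against 0 h, genes at the thresholds and neighbours. The other members were named so that all are accounted for. Groups of genes by role were made after the members were known. Word classes for genes matched 0 members and were not used. Sequences were not used here. Pairs were taken from the replicate numbers in the sample titles, and the number was a block in an alternative fit. Same-numbered arrays of different groups correlated in their deviations at r = 0.173 to 0.616. Unlike-numbered arrays of replicates 1 and 2 reached 0.277. At 0 h, replicate 1 correlated at 0.240 with untreated replicate 1 and at 0.246 with untreated replicate 2. The values thus set replicate 3 apart but do not show that numbers 1 and 2 mark paired samples. Python 3.11.15 and matplotlib 3.10.9 drew the plots.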

Additional observations from a re-analysis of the deposited data

Results flagged for a closer look

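Outside the genes described, 105 probe sets that named several genes or none here met the same rule, with estrogen-treated cells above untreated cells by 0.5 or more in every pair. They were 0.748% of such probe sets at the floor and held 79 distinct profiles, with a median difference of 1.05 and a largest of 6.35. In the opposite direction 24 passed. Their genes were not analysed here.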

How the results depend on the processing

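The number of genes that met the rule was 94, 13 and 6 with a minimum difference of 0.3, 0.75 and 1, and 43, 26 and 47 with a floor of 4, a floor of 6 and no floor. Quantile normalization gave 29 genes (28 of them among the 37) and median centring 36 (34 among them). Leaving out replicate 1, 2 or 3 in both groups gave 46 to 76. Over 19 alternatives of the fit against 0 h, 13 to 19 of the 37 genes were called higher and 11 to 14 lower. These included 16 to 17 and 11 to 12 when single arrays were left out. The share of all tested probe sets called in either direction also moved, from 34% to 58.3%, with 43.8% in the main fit. The replicate block called 18 of the 37 genes higher and 12 lower and, against 0 h, changed the call of AT5G49100 alone. Over the whole table of 38310 probe sets, 15 were called between cells with and without estrogen. The count was 23 with the replicate block, 608 with array weights (218 higher, 27 of the 37 genes among them) and 11 to 95 without single arrays, highest without untreated replicate 3 (22 higher). Alternatives chosen after seeing the data gave 69 in replicates 1 and 2 only (30 higher, 3 of the 37) and 40 with replicate 3 as a batch term (5 of the 37). The rule selected the 37 genes on this estrogen difference, so calls of theirs in these fits are no support for them. The cause of the changes in these counts was not tested.

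The contrast with 0 h changed sign in 4 uncalled genes. Without single arrays it ran from -0.749 to 0.0441 for AT5G08350, -0.281 to 0.21 for AT2G42990, -0.0374 to 0.576 for AT5G62350 and -0.101 to 0.0545 for AT3G60260. The first 3 of these changed sign without replicate 3 at 0 h, and AT2G42990 also without untreated replicate 1 or 2. AT3G60260 changed sign without replicate 1 at 0 h, estrogen-treated replicate 1 or untreated replicate 3. AT5G62350 was at -0.0776 after quantile normalization. The smallest estrogen difference of a member after quantile normalization or centring was 0.54. Promoter motifs were not searched here.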
